A study of Mus musculus with 2 samples.

Results

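The transcripts described here encode the heat shock proteins and the J-domain proteins that work with them, as measured in mouse myotubes. Members were taken from the deposited value table by gene symbol: those starting with Hspa, Hspb, Hspd, Hspe, Hsph, Hsp90 or Dnaj, on probe sets annotated to a single gene, leaving out the endoplasmic reticulum chaperones Hspa5, Hsp90b1, Dnajb9, Dnajb11 and Dnajc3. This gave 67 genes of the 19938 with such a probe set, 25 named Hsp and 42 named Dnaj. Where a gene had several probe sets, the one with the highest mean over the 2 arrays was used.

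C2C12 is an established mouse myoblast line whose cells fuse into myotubes in low-serum medium. Cells were kept in medium with 10% fetal bovine serum and differentiated at confluence over 7 days in 2% horse serum. Virus was added at 30 infectious particles per cell (the multiplicity of infection), and RNA was taken 48 h later. The Ad-caERα culture received an adenovirus for a constitutively active estrogen receptor α and the Ad-DsRed culture received an adenovirus for a red fluorescent protein, so both carried a viral vector. The promoter that drives either insert is not given in the sources used here, nor is the species or form of the receptor. Each vector was profiled on 1 array, so no difference below has a replicate check, and none was tested.

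Hsp70 proteins bind unfolded stretches of other proteins and release them in a cycle of ATP hydrolysis. J-domain proteins bring substrates to Hsp70 and start the hydrolysis, and exchange factors such as the Hsp110 proteins reset it. Hsp90 acts later on partly folded clients, among them the steroid receptors, which it holds in a form that can bind hormone. Small heat shock proteins bind unfolding proteins without ATP and several are made mainly in muscle. Heat shock factor 1 drives many of these genes in stressed cells through heat shock elements, which are alternating GAA and TTC units spaced by 2 bases.

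Of the 67 members, 62 had a signal above the detection floor on at least 1 array. The floor, a log2 signal of 5.11, was set from 1210 probe sets for odorant and pheromone receptors, genes taken as silent in muscle, at the 95th percentile of their brighter signal. The testis-enriched Dnajb3, Dnajb7, Dnajc5b and Dnajc5g and the brain auxilin gene Dnajc6 were below it on both arrays. A difference is always log2 signal with Ad-caERα less that with Ad-DsRed. Their SD was 0.22 over the silent receptor probe sets, 0.12 over 53 ribosomal protein genes and 0.13 between a gene's own probe sets (770 genes). These figures come from the same 2 arrays and hold no spread between cultures.

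The label "cytosolic" covers most members but not all. Hspa9, Hspd1, Hspe1, Dnaja3 and Dnajc19 encode proteins of mitochondria, and Hspa13, Dnajb12, Dnajb14, Dnajc1 and Dnajc10 encode proteins of the endoplasmic reticulum. Hspbp1 and Hspbap1 share only the letters of the small heat shock protein symbols, and Hspb11 encodes a subunit of intraflagellar transport. All 12 myotube markers checked were above the floor, with Acta1, skeletal α-actin, at 12.92 with Ad-DsRed and 12.91 with Ad-caERα. The log2 of their summed signals was 14.96 with Ad-DsRed and 14.93 with Ad-caERα. Over 8 markers of undifferentiated myoblasts, all above the floor, it was 12.32 and 12.16. It was 13.41 and 13.42 over 6 fibroblast markers, 5 of them above the floor. Most of that sum came from Dcn, at 13.11 and 13.18. Of the 5 fibroblast markers above the floor, 2 were higher and 3 lower, with a median difference of -0.0032. Pdgfrb (-0.39) and Pdgfra (-0.28) were lowest. Of the 12 myotube markers 10 were lower with Ad-caERα, as were 6610 of the 13554 measured genes. The median difference of these markers, -0.099, was smaller than the SD of 0.12 over ribosomal protein genes. They ran from -0.48 in Myh4 to 0.22 in Des, with Acta1 at -0.0049. The myoblast markers differed in both directions, from -0.94 in Vcam1 to 0.71 in Myf5. Of the leukocyte, endothelial and adipocyte markers 1 of 5, 1 of 4 and 2 of 5 were above the floor, with Ptprc, Csf1r, Pecam1, Cdh5, Adipoq and Fabp4 below it on both arrays. Of 3 osteoblast markers on the array 1 was above the floor. Their part in the differences below was not tested, and in bulk RNA fewer cells of a type and less RNA per cell cannot be told apart.

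Stretches from promoters with at least 2 alternating units, the letters of a heat shock element, are shown first. They are a selection from the 13 members with such letters wholly upstream of the start of transcription. Regulation of these members by heat shock factor 1 was not tested. RefSeq promoter windows (build GRCm38.p6, 250 bases before to 50 after the start of transcription) were found for 54 of the 67 members. Capitals mark matches to GAANNTTC or TTCNNGAA, which are their own reverse complements, so a match on 1 strand is a match on the other. Matches may overlap. Each sequence is written in the direction of its gene.
Hspe1: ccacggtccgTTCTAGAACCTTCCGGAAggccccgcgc
Dnajb6: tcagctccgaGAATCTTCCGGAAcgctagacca
Hspa1a: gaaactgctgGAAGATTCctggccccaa
Hspb1: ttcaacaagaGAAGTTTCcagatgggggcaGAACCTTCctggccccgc
Hspb6: agtaattattGAAGTTTCtaaataagga
Dnaja1: aaagcctctaGAAAATTCtacgaggctc
Dnaja4: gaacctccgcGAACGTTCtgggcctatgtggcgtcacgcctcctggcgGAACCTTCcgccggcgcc

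The Hspe1 stretch printed above, flanking bases included, lies at chr1:55088049-55088086 on the plus strand, 62 to 99 bases before the Hspe1 start. Its reverse complement stands before Hspd1, the neighbouring gene on the minus strand, a listed start of which is 216 bases from that of Hspe1, so the genes for Hsp10 and Hsp60 share it. The Dnajb6 stretch is at chr5:29735842-29735874, plus strand, before both listed starts of the gene. The others are at chr17:34972243-34972270, minus strand (Hspa1a), chr5:135887792-135887839, plus (Hspb1), chr7:30553171-30553198, plus (Hspb6), chr4:40722334-40722361, plus (Dnaja1), and chr9:54699459-54699524, plus (Dnaja4).

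Of the 54 members with a promoter, 15 (27.8%) held GAANNTTC or TTCNNGAA, against 17.0% of the 27025 genes in the table. A run of 3 units stood in 4 of 54 (7.41%), namely Hspd1, Hspe1, Dnajb6 and Hsph1, against 0.662% of all genes. Hspd1 and Hspe1 share the same run, so these 4 genes do not hold 4 separate runs. In Hspd1, Hspe1 and Dnajb6 the run lay wholly upstream of the start. The consensus palindromic estrogen response element, searched on both strands, stood in 0 of 54 members and in 0.0740% of all genes. With up to 1 mismatch it stood in Hspa2 alone of the 54, and in 0.995% of all genes. The CCAAT box, on either strand, stood in 35.2% of members and 41.1% of all genes. Measured members with a heat shock match of 2 units had a median difference of 0.043 over 14 genes and those without one 0.058 over 36. For the run of 3 units the medians were -0.049 over the 4 genes with it and 0.064 over the 46 without. A match is a description of the letters in the window and not a bound site.

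No member differed by 1.5-fold between the arrays in either direction. The count was 0 of 62 in each direction, while 1.82% of the 13554 measured genes were that much higher and 0.885% that much lower. At 2-fold it was again 0, against 0.590% and 0.0959% of all genes. Differences of the members ran from -0.37 in Hspa4l to 0.49 in Hspa1a. By a smaller step, a log2 difference of 0.32, 5 members were higher (8.06%; 7.34% of all genes) and 2 were lower (3.23%; 6.76% of all genes). The 5 were Hspa1a, Hspb2, Hspa1l, Hspb6 and Dnaja4, and the 2 were Hspa4l and Dnajb13. Dnajb13 was below the floor with Ad-caERα and has only a bound. The count of lower members was 1 under either higher floor, with values raised to the floor, with loess correction and with repeated quantile normalization. The count of higher members was 4 with the 99th percentile floor of 6.16, which Hspa1l did not reach. It stayed at 5 with loess correction and with repeated quantile normalization, but Dnajc12 then took the place of Dnaja4. The share of higher members was near that of all genes, and the share of lower ones rests on 2 genes.

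**Figure D1:**
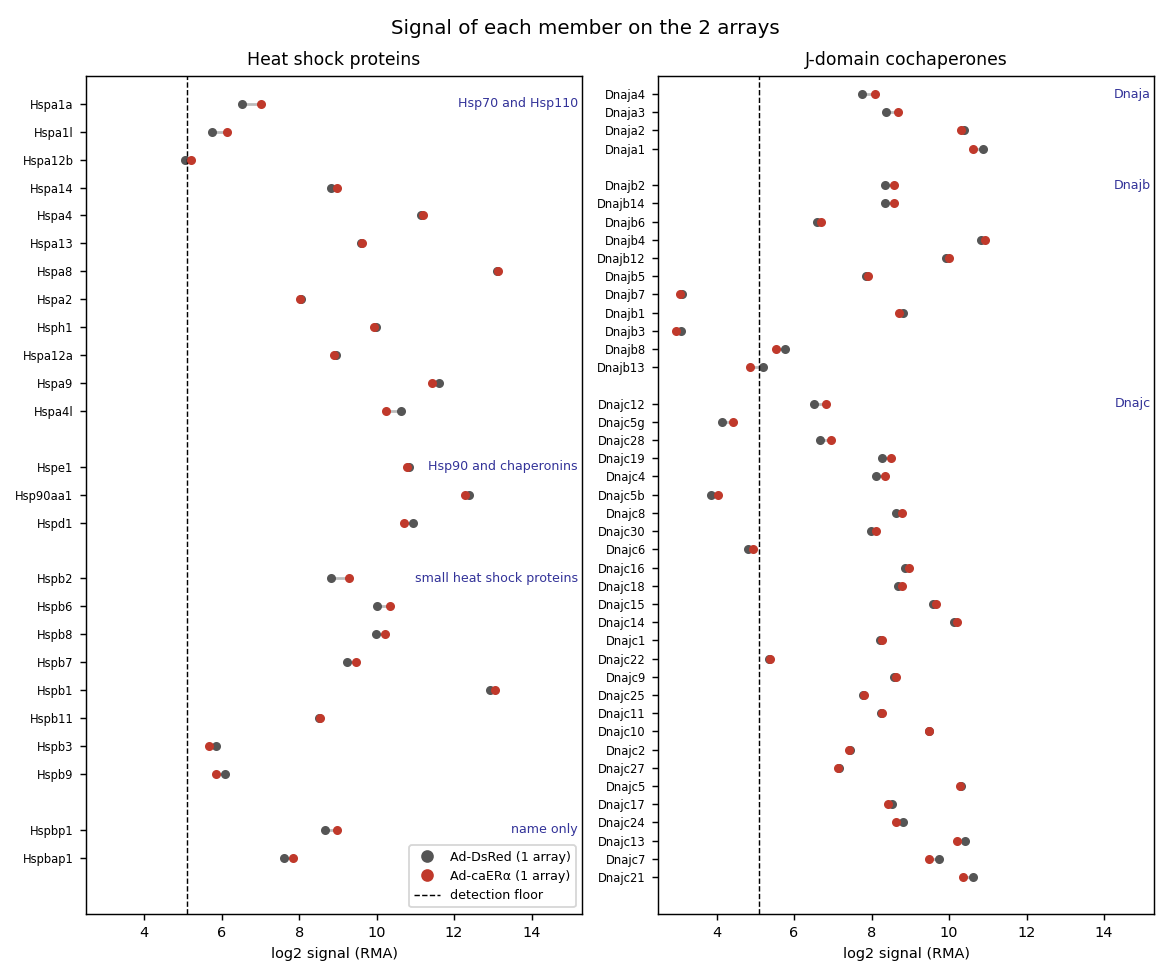
Log2 signal of each of the 67 members in Ad-DsRed (grey) and Ad-caERα (red), 1 array each, grouped by family and ordered by difference. The dashed line is the detection floor of 5.11; the grey and red points differ by at most 0.49, and 5 J-domain genes lie left of the floor on both arrays.

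The median difference over the 62 members was 0.049, beside 0.0017 over all measured genes. Above 0 were 38 of them (61.3%), against 50.2% of all measured genes. When differences were corrected by loess for a trend with signal level, 33 of 62 (53.2%) were above 0, against 50.3% of all genes. The families had medians of 0.014 for Hsp70 and Hsp110 (12 genes), 0.18 for the small heat shock proteins (8), -0.12 for Hsp90 with the mitochondrial chaperonins (3), 0.10 for Dnaja (4), 0.068 for Dnajb (9) and 0.040 for Dnajc (24). The median difference of Hsp70 and Hsp110 turned to -0.015 with loess correction and to -0.014 when the columns were quantile-normalized again. It was also below 0 with the 99th percentile floor (-0.010) and with the mean or the dimmest of a gene's probe sets (-0.0070), so its sign depends on the processing. The ranges of the families overlapped. Below 0 were 3 of 3 genes of Hsp90 and the chaperonins, 5 of 12 of Hsp70 and Hsp110 and 2 of 8 small heat shock proteins.

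**Figure D2:**
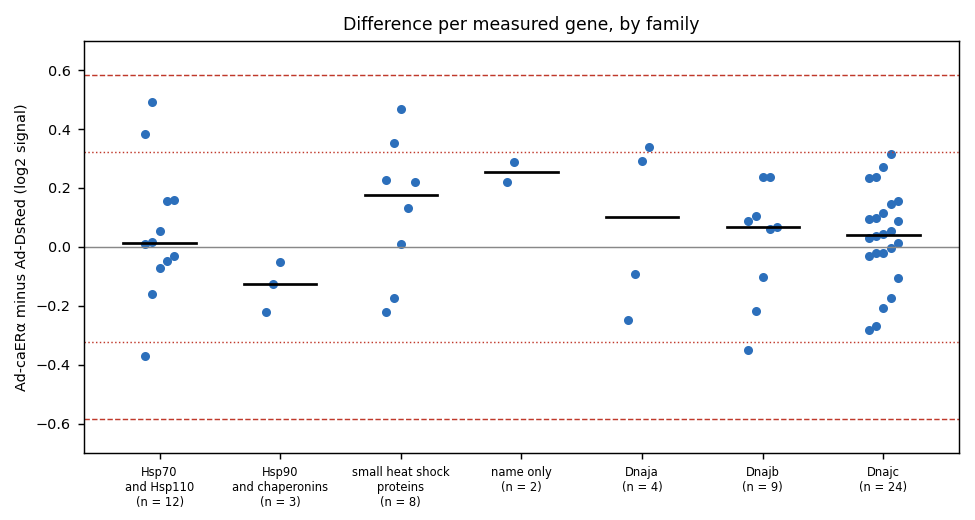
Ad-caERα minus Ad-DsRed (log2 signal) for each of the 62 measured members by family; points are genes and horizontal bars are medians. Dotted and dashed lines mark differences of 0.32 and 0.58 (1.5-fold); 7 points lie beyond the dotted lines and 0 beyond the dashed ones, and the medians run from -0.12 to 0.25 ("name only" holds Hspbp1 and Hspbap1).

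Hspa1a, the stress-inducible cytosolic Hsp70, had a signal of 6.52 with Ad-DsRed and 7.01 with Ad-caERα. The difference of 0.49 (1.41-fold) was above 97.3% of the measured genes. Hspa1l, its testis-enriched relative next to it on the chromosome, was at 5.75 and 6.13 (0.38). Both genes were higher in Ad-caERα. Their coding sequences resemble those of other Hsp70 genes, so probes may read more than 1 of them. Hspa1b, whose promoter equals that of Hspa1a at 296 of 300 positions, had no probe set of its own.

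The constitutive Hsp70 gene Hspa8, which serves folding in unstressed cells, was at 13.11 with Ad-DsRed and 13.12 with Ad-caERα. Its difference of 0.010 turned to -0.025 with loess correction and -0.017 with repeated quantile normalization. Over its 3 probe sets the difference ran from -0.088 to 0.010. Hspa2, known for its role in spermatogenesis, was at 8.05 and 8.02 (-0.031). The 2 genes had nearly the same signal on both arrays.

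Among the Hsp110 genes, whose products exchange nucleotide on Hsp70, Hspa4l had the lowest difference of all members. It was at 10.62 with Ad-DsRed and 10.25 with Ad-caERα (-0.37, 1.29-fold lower), with 4.62% of measured genes lower still. Hspa4 was at 11.15 and 11.20 (0.055). Hsph1, the heat-inducible one, was at 9.99 and 9.94 (-0.049). The Hsp110 genes thus had no common direction.

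Hspa9, mortalin of the mitochondrial matrix, was at 11.60 and 11.44 (-0.16). Hspa13, an Hsp70 relative of the endoplasmic reticulum, was at 9.60 and 9.62; its difference of 0.017 turned to -0.0052 with loess correction. Hspa14, which with the J-domain protein of Dnajc2 binds ribosomes, was at 8.82 and 8.97 (0.15), and Dnajc2 itself was at 7.44 and 7.42 (-0.019). The distant relatives Hspa12a and Hspa12b were at 8.96 and 8.89 (-0.073) and at 5.04 and 5.20. Hspa12b was below the floor in Ad-DsRed, so its fold is at least 1.07 higher.

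Hsp90aa1, the inducible cytosolic Hsp90, was at 12.39 with Ad-DsRed and 12.27 with Ad-caERα (-0.12). Its 3 probe sets had differences from -0.18 to -0.11. The constitutive Hsp90ab1 was not analysed here. Hspd1, which encodes the mitochondrial chaperonin Hsp60, was at 10.93 and 10.71 (-0.22), and its dimmer probe set differed by -0.048. Hspe1, which encodes the lid Hsp10, was at 10.83 and 10.78 (-0.050), and its other probe set differed by -0.036. All 7 probe sets of these 3 genes were lower in Ad-caERα, each by less than 0.32.

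Small heat shock proteins had the highest median of the 6 families on the deposited values with the brightest probe sets, 0.18. Above 0 were 6 of 8 genes, against 50.2% of all measured genes. With the dimmest probe set of each gene, Dnaja had the highest median by a small margin, and both medians rounded to 0.18. Hspb2, which binds the myotonic dystrophy kinase in muscle, was at 8.81 with Ad-DsRed and 9.28 with Ad-caERα (0.47, 1.38-fold). Hspb6, the muscle protein Hsp20, was at 10.00 and 10.36 (0.35, 1.28-fold). Hspb8, which works with the exchange factor encoded by Bag3 to clear damaged filament proteins, was at 9.99 and 10.22 (0.23). Hspb7, a heart and muscle member, was at 9.24 and 9.46 (0.22). These 4 genes were higher in the array with the active receptor. By more than 0.32, 2 of the 8 in the family were higher, Hspb2 and Hspb6 (25%; 7.34% of all genes). Of the rest of the family, Hspb1 was also higher, Hspb11 was near 0, and Hspb3 and Hspb9 were lower.

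Hspb1, which encodes the heat-inducible Hsp25 and binds actin filaments, was at 12.92 and 13.05 (0.13), and its other probe set differed by 0.14. The signals of Hspb3, a muscle member that pairs with Hspb2, were weaker and lower in Ad-caERα, at 5.85 and 5.68 (-0.17). Hspb9, a testis member, was at 6.08 and 5.86 (-0.22). Hspb11 was at 8.52 and 8.53, a difference of 0.0098 that turned to -0.027 with loess correction. Without Hspb11 the median was 0.22 over 7 genes, an alternative chosen after seeing the data. Hspb3 and Hspb9 lay within 1 log2 unit of the floor, where RMA compresses differences.

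Cryab, which encodes the small heat shock protein αB-crystallin and lies beside Hspb2 on the chromosome, does not carry an Hsp symbol. It was at 11.83 with Ad-DsRed and 12.18 with Ad-caERα (0.34). The differences of Hspb2 and Cryab, neighbours in the RefSeq annotation, were 0.47 and 0.34. Neighbouring members were Hspa1a with Hspa1l (0.49 and 0.38) and Hspd1 with Hspe1 (-0.22 and -0.050). Each pair had the same sign on these 2 arrays, but the pairs are few. The difference of Hspe1 was smaller than the SD of 0.12 over ribosomal protein genes. Probes of Hspa1a and Hspa1l may read more than 1 Hsp70 gene, and shared regulation was not tested. Cryaa, the lens crystallin gene, was at 5.73 and 5.60 (-0.13). Hspbp1, which encodes an exchange factor of Hsp70, was at 8.68 and 8.97 (0.29), and Hspbap1, whose product binds Hsp25, at 7.61 and 7.83 (0.22).

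In the Dnaja group, which holds the relatives of bacterial DnaJ, Dnaja1 and Dnaja2 act with Hsp70 in the cytosol. Dnaja1 was at 10.88 with Ad-DsRed and 10.63 with Ad-caERα (-0.25), but its dimmer probe set was at 9.05 and 9.13 (0.078), so the direction depends on the probe set. Dnaja2 was at 10.39 and 10.30 (-0.091). Dnaja3, the mitochondrial member, was at 8.38 and 8.67 (0.29), and Dnaja4, a cytosolic member, at 7.74 and 8.08 (0.34, 1.27-fold). The group was thus divided, with 2 genes on either side of 0.

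**Figure D3:**
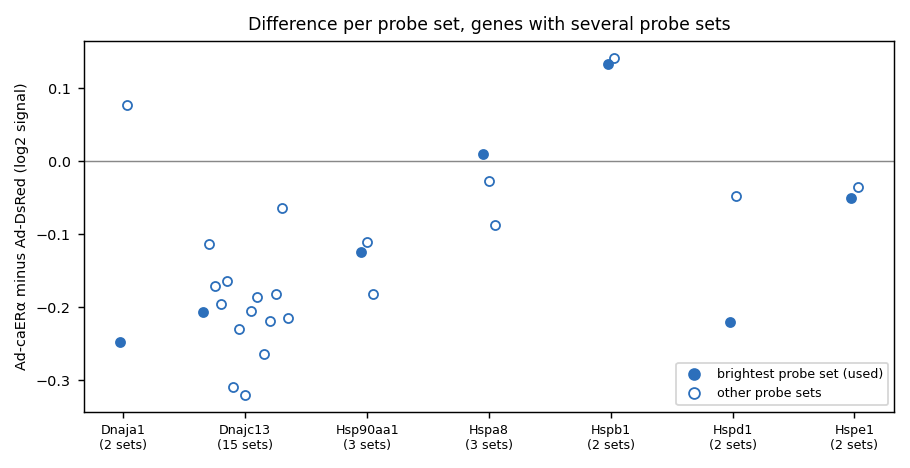
Ad-caERα minus Ad-DsRed (log2 signal) for each single-gene probe set of the 7 members with more than 1; filled points are the brightest probe sets, which were used, and open points the others. The 15 probe sets of Dnajc13 all lie below 0 (-0.32 to -0.064), whereas the pair of Dnaja1 lies on either side (-0.25 and 0.078).

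In the Dnajb group, Dnajb1, the main heat-inducible Hsp40, was at 8.81 and 8.71 (-0.10). Dnajb4 and Dnajb5, its close relatives, were at 10.83 and 10.92 (0.088) and at 7.85 and 7.91 (0.060). Dnajb6, which holds back protein aggregation and is mutated in a limb-girdle muscular dystrophy, was at 6.60 and 6.71 (0.10). Dnajb2, an ubiquitin-binding member, was at 8.34 and 8.58 (0.24). These 5 cytosolic members lay within 0.24 of 0.

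The endoplasmic reticulum membrane members Dnajb12 and Dnajb14 were at 9.93 and 10.00 (0.068) and at 8.35 and 8.58 (0.24). Dnajb8, a testis member, was at 5.76 and 5.55 (-0.22). Dnajb13, a component of cilia and sperm tails, was at 5.20 in Ad-DsRed and below the floor in Ad-caERα, so it was at least 1.07-fold lower. Its difference on the deposited values, -0.35, was past the smaller step, and it was -0.097 when values below the floor were raised to it.

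The Dnajc group is held together by the J-domain alone, and its members serve different parts of the cell. The highest of the 24 measured was Dnajc12, a partner of the aromatic amino acid hydroxylases, at 6.50 with Ad-DsRed and 6.82 with Ad-caERα (0.32 when rounded, just under the smaller step). Dnajc28 was at 6.67 and 6.95 (0.27), Dnajc19, a component of the mitochondrial import motor, at 8.26 and 8.50 (0.24), and Dnajc4 at 8.11 and 8.34 (0.23). Dnajc8, a splicing-associated member, was at 8.63 and 8.79 (0.15). Dnajc30, a mitochondrial member, was at 7.98 and 8.13 (0.15), Dnajc16 at 8.86 and 8.97 (0.11), and Dnajc18 at 8.68 and 8.78 (0.096). None of these 8 was past the smaller step on the deposited values. Dnajc12 was past it with loess correction and with repeated quantile normalization.

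The lowest Dnajc genes were Dnajc21, a ribosome biogenesis factor, at 10.63 and 10.35 (-0.28), and Dnajc7, whose product binds both Hsp70 and Hsp90, at 9.75 and 9.48 (-0.27). Dnajc13, which acts in endosomal sorting, was at 10.42 and 10.22 (-0.21). All 15 of its probe sets were lower in Ad-caERα, with a median difference of -0.21 and an SD of 0.066 between them. These probe sets read different parts of the same transcript in the same 2 RNA samples and are not replicates of the cultures. Dnajc24, needed for the diphthamide modification of an elongation factor, was at 8.80 and 8.63 (-0.17), and Dnajc17, linked to splicing, at 8.53 and 8.43 (-0.11).

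Nearer to 0 were Dnajc5, the cysteine string protein gene, at 10.31 and 10.28 (-0.031), and Dnajc27 at 7.16 and 7.14 (-0.022). The remaining 8 Dnajc genes above the floor were Dnajc10, Dnajc11, Dnajc25, Dnajc9, Dnajc22, Dnajc1, Dnajc14 and Dnajc15. They had differences from -0.0022 in Dnajc10, a disulfide reductase of the endoplasmic reticulum, to 0.094 in Dnajc15, a partner of the mitochondrial import motor. Dnajc11 and Dnajc25 changed sign with loess correction and with repeated quantile normalization.

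Split by compartment, the 9 members on the mitochondrial list, which does not hold Dnajc30, had a median of 0.094. The chaperones Hspd1, Hspa9 and Hspe1 were below 0 (-0.22 to -0.050), whereas the 6 J-domain members of the list, Dnaja3, Dnajc28, Dnajc19, Dnajc4, Dnajc15 and Dnajc11, were above it on the deposited values (0.015 to 0.29). Dnajc11 was below 0 with loess correction (-0.026). The 8 members of the endoplasmic reticulum had a median of 0.061, and the highest was Dnajb14. The 5 reticulum chaperones left out of the set had a median of 0.038, from -0.14 in Hsp90b1 to 0.28 in Dnajb9. The 12 measured genes of the heat-inducible list, which also holds the mainly constitutive Hspa8, had a median of -0.049, with 5 above 0 and 7 below. Hspa8 is 1 of the 5 and was below 0 with loess correction and repeated quantile normalization. By more than 0.32, 1 was higher (Hspa1a; 7.34% of all genes) and 1 lower (Hspa4l; 6.76% of all genes).

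Partners of the members were described from further lists. Of the 15 measured partners and exchange factors of Hsp70, 1 was 1.5-fold higher (1.82% of all genes) and 0 were that much lower (0.885%). It was Bag1, which encodes an exchange factor that also binds steroid receptors, at 10.54 with Ad-DsRed and 11.13 with Ad-caERα (0.59). The difference of Bag1 lay just past the 1.5-fold step of 0.58, and was below it, at 0.57, with loess correction and with repeated quantile normalization. The count was then 0 of 15. The median of the list was 0.041. Next were Hscb, a mitochondrial J-protein of iron-sulfur cluster assembly, at 5.88 and 6.20 (0.32), and at the bottom Grpel2 (-0.043) and Bag5 (-0.042). Bag3 was at 10.27 and 10.31 (0.041) and Stub1, a ubiquitin ligase gene, at 9.71 and 9.82 (0.11).

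The 24 Hsp90 cochaperones had a median of -0.0031, with 12 above 0 and 12 below. Of the 24, 0 were 1.5-fold higher (1.82% of all genes) and 0 that much lower (0.885%). The highest were Unc45a (0.35), which encodes a myosin chaperone found in many tissues, and Fkbp8 (0.32). The lowest were Itgb1bp2, which encodes the muscle protein melusin, at 8.19 and 7.74 (-0.45), and Ahsa2 (-0.34), a relative of the gene for the Hsp90 activator. Unc45b, the muscle-specific myosin chaperone gene, was at 8.11 and 7.92 (-0.19).

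The steroid receptor folding machinery, 15 measured genes that include members, had a median of -0.019, with 7 above 0 and 8 below. Of these 1 was 1.5-fold higher (1.82% of all genes), again Bag1, and 0 were that much lower (0.885%). This call too was lost with loess correction and with repeated quantile normalization, where the difference of Bag1 was 0.57. Hspa1a followed, and Dnaja1 (-0.25) and Ptges3, the p23 cochaperone gene, at 11.94 and 11.78 (-0.15), were lowest. Ptges3 differed by 0.12 on its dimmest probe set. The immunophilin genes Fkbp4 and Fkbp5 had differences of 0.17 and -0.019. Of 6 heat shock factor genes and regulators on the list, 5 were measured, and Hsf1 was not analysed here. Their median was -0.055, with 0 of 5 past 1.5-fold (of all genes, 1.82% were higher and 0.885% lower). Hsbp1 (0.029) and Hsf2 (0.013) were highest, and Hsf2bp (-0.28) and Hsf4 (-0.20) lowest. Hsf2 and Hsf5 changed sign with loess correction and with repeated quantile normalization.

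Genes that act with Hspb8 and Cryab in the care of muscle filaments gave no common direction. The list of 9 had a median of 0.041, and 0 of 9 were 1.5-fold higher or lower (1.82% and 0.885% of all genes). After Cryab the highest was Trim32 (0.25), a ubiquitin ligase gene. The lowest were Synpo2, a Z-disc protein gene, at 7.06 and 6.66 (-0.40), and Cryaa.

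**Figure D4:**
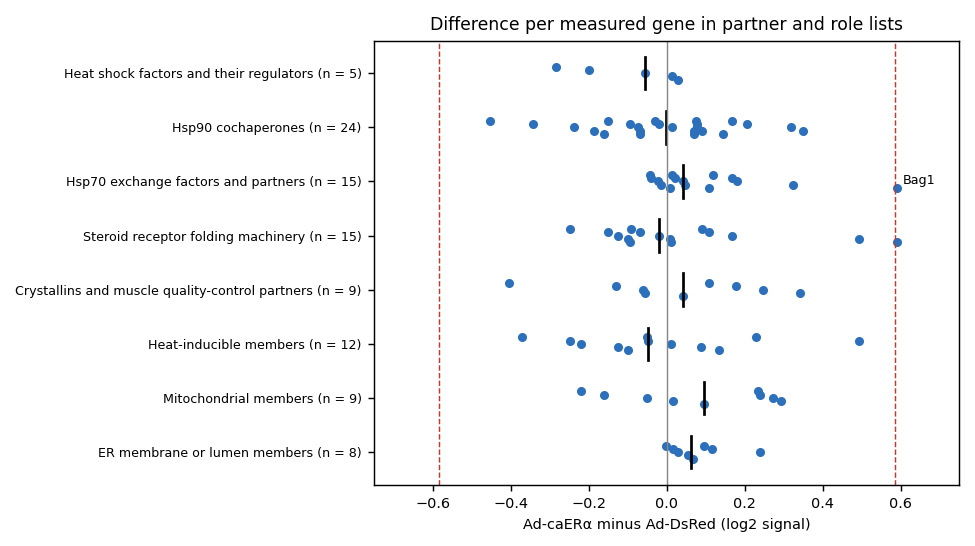
Ad-caERα minus Ad-DsRed (log2 signal) for the measured genes of 8 lists, with medians as black bars and 1.5-fold as dashed lines. Bag1, in 2 of the lists, is the 1 gene beyond a dashed line on the deposited values (0.59), though not with loess correction or repeated quantile normalization (the difference of Bag1 was 0.57 in both); list medians lie between -0.055 and 0.094, and the lists share genes.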

How the data were processed

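The authors deposited log2 signals per probe set, 1 column per array, made with Affymetrix Expression Console and RMA per the submitters' processing notes; RMA corrects background, quantile-normalizes arrays and summarizes probes, compresses weak differences and hides a change in total mRNA. Their versions were not stated. Of 35556 probe sets the platform annotation named 1 gene for 21789 and several for 1621, and 12146 are unnamed here. Probe sets with several genes were not used, 10 of them with a member's symbol. All 67 members matched RefSeq (GRCm38.p6) by gene identifier, with 0 symbols changed. Over measured genes the arrays correlated at r = 0.990 across genes, which are not replicates. The members and gene lists were chosen with earlier results of these data known. The text names every measured Hsp, Dnaja and Dnajb member, the Dnajc members past 1.5-fold and the 8 highest and 8 lowest, and of each partner list those past 1.5-fold and the 2 highest and lowest; others were chosen after their values were seen. Alternatives covered the floor, centring, loess (span 0.3), quantile normalization, the probe set rule and the fold. The code was tested on simulated data. Python 3.11.15, numpy 2.4.6, pandas 2.3.3, statsmodels 0.14.6 and matplotlib 3.10.9 were used.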

Additional observations from a re-analysis of the deposited data

How the results depend on the processing

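No paired analysis was possible because there was 1 array for every vector, and no replicate could be left out, so the spread between cultures is unknown. The counts of members 1.5-fold higher, 1.5-fold lower and past 2-fold were 0 under each of the 9 other settings of floor, scaling and probe set. They became 5 higher and 2 lower at a log2 difference of 0.32. At that step 1 was lower with either higher floor, values raised to the floor, loess correction or repeated quantile normalization. With the 99th percentile floor 4 were higher, without Hspa1l. With loess correction and repeated quantile normalization Dnajc12 counted as higher and Dnaja4 did not. The median difference of Hsp70 and Hsp110 was below 0 with loess correction (-0.015), repeated quantile normalization (-0.014), the 99th percentile floor (-0.010) and the mean or dimmest probe set (-0.0070). With loess correction the median difference of members moved to 0.015 and the median difference of Dnajc to 0.0065. The median difference of small heat shock proteins moved to 0.22 with the 99th percentile floor, with the floor at the median of all signals, without Hspb11, and with signals at least 1 log2 unit above the floor, the last 2 chosen after seeing the data. With the dimmest probe set, the median difference of Hsp90 and chaperonins was -0.048 and the median difference of Dnaja 0.18, because Hspd1 and Dnaja1 have probe sets that differ. Of 1477 recalculated differences of single genes, 1468 moved by less than the SD of 0.12 over ribosomal protein genes, and 9 moved by more. Most of these could hardly have moved. Another floor leaves a difference as it is, and the probe set rules act only on genes with several probe sets. Beside a small shift by centring, only loess correction and repeated quantile normalization act on most genes. The count is thus no measure of how stable the differences are. Hspa12b and Dnajb13, below the floor on 1 array, have only bounds. The difference of Bag1 was 0.57, under the 1.5-fold step, with loess correction and repeated quantile normalization.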

Other observations

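The cytosolic chaperonin TRiC, which folds actin and tubulin, and prefoldin, which hands them to it, lay close to 0. Of 14 measured genes 7 were above 0 and 7 below, with a median difference of 0.0070. At 1.5-fold 0 were higher (1.82% of all genes) and 0 lower (0.885%). Pfdn6, a prefoldin subunit gene, was highest, at 8.39 with Ad-DsRed and 8.67 with Ad-caERα (0.28), followed by Pfdn5 (0.14), and Cct8, a TRiC subunit gene, was lowest, at 10.16 and 9.94 (-0.21), followed by Cct7 (-0.048).

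Mitochondrial partners of Hsp60 and Hsp70 had a median of 0.18 over 8 measured genes, with 5 above 0. At 1.5-fold 0 were higher (1.82% of all genes) and 0 lower (0.885%). After Hscb (0.32), the protease gene Lonp1 was highest, at 8.64 and 8.91 (0.26), followed by Clpp, another protease gene (0.26), and Trap1, the mitochondrial Hsp90 (0.25). The lowest were Grpel2 (-0.043) and Clpx (-0.026). Hspd1, Hspe1 and Hspa9, the matrix chaperones these proteins work with, were below 0 on the same arrays (-0.22, -0.050 and -0.16).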
